A study of Arabidopsis thaliana with 2 samples.

Results

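The genes described here encode the wax ester synthase family of Arabidopsis thaliana and a pair of CER2-like proteins, named after a protein needed for wax chain elongation. They were chosen by locus, with earlier results of these data known. They were WSD1 (AT5G37300), 7 other loci of its family, and CER26 (AT4G13840) and CER26-LIKE (AT3G23840). Of these 10 genes, 7 had an array feature assigned to that gene alone, out of 9236 such loci in all. The 7 comprised 5 of the 8 wax ester synthase loci and both CER2-like genes. No feature was named for AT2G38995, AT3G49200 and FOP1 (AT5G53390), the locus known for its mutant with folded petals, so these were not analysed here.

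RNA was compared between the wax-deficient mutant cer6-2 and the wild-type accession Ler-0, with no treatment. The material was aerial parts, leaves and stems, of plants given as 15 days old in the sample labels and as 2 weeks old in the design text. Long days of 16 h were used, with nights of 8 h, a temperature of 22 °C and a humidity of 80%. RNA from 20 plants of each genotype was pooled, and 2 two-colour arrays compared the pools, with cer6-2 in Cy3 on array 1 and in Cy5 on array 2. The arrays measured 1 pool per genotype, so they are technical measurements, no p-value is given, and a difference between the genotypes cannot be told apart from one between the pools.

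Plant surface wax is made in the epidermis from very-long-chain acyl-CoAs. CER6, the gene mutated in cer6-2, encodes a ketoacyl-CoA synthase, the condensing enzyme of the elongase that makes these chains. CER2 and its relatives belong by sequence to the BAHD acyltransferases. They are known to extend the chain lengths that CER6 can make, as shown by expressing both in yeast. The chains then enter an alkane branch or an alcohol branch, and in the alcohol branch a wax ester synthase joins a fatty alcohol to an acyl group. WSD1 is the enzyme that makes most stem wax esters in Arabidopsis. Its family is also described as bifunctional, because some members can acylate diacylglycerol as well.

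Each value below is a log2 ratio of cer6-2 over Ler-0, so a value of 1 is 2-fold higher in the mutant, and each mean is given ± the SD between the 2 arrays (n = 2). The direction is likely but not settled, since no source states which dye is the numerator. It was taken as Cy5 over Cy3, the usual convention of the array's maker, and with the other convention higher and lower exchange places. A gene was called when each array alone put it 2-fold or more to the same side of 0, which is a rule of size and not a test. The table holds ratios without signal levels, so it cannot be seen whether a transcript was above background, and the number of arrays limits the precision. In bulk tissue, fewer cells of a type and less RNA per cell cannot be told apart.

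None of the 7 genes was called in either direction, whereas 1.32% of all 9236 loci were, 0.595% higher and 0.725% lower in cer6-2. Beside a background this small, a count of 0 among 7 genes does not set the family apart. None was called at 1.5-fold either, where the background was 3.70%. The means ran from -0.50 for CER26-LIKE to 0.69 for AT3G49210, with 2 above 0 and 5 below. Their median was -0.06, beside a median of 0.00 over all loci.

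**Figure D1:**
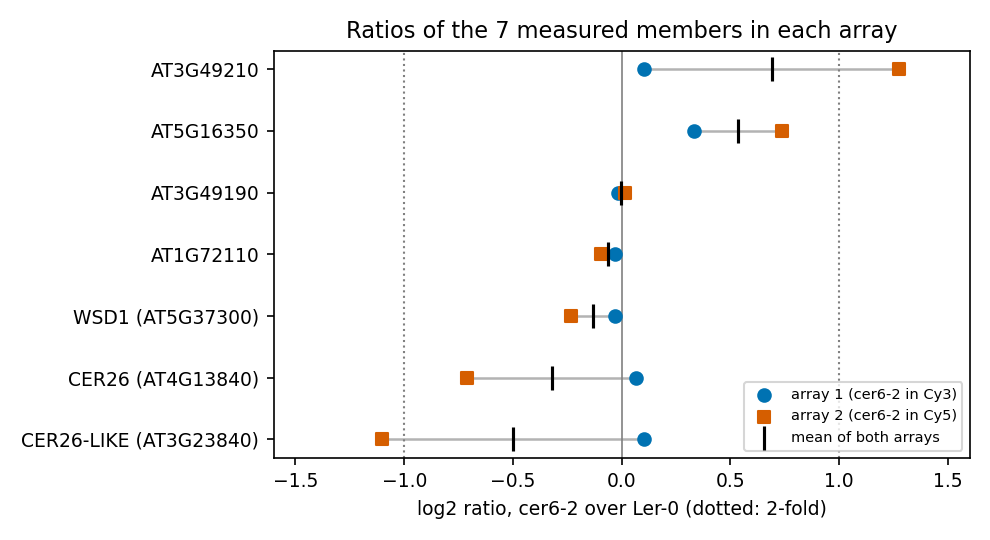
The log2 ratio of cer6-2 over Ler-0 (horizontal axis) is shown for each of the 7 genes. Circles are array 1, squares array 2, vertical ticks the mean of both, and dotted lines mark 2-fold. All circles lie between -0.03 and 0.33, while the squares spread from -1.10 to 1.27.

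WSD1, the wax ester synthase of the stem, stood at -0.03 in array 1 and -0.23 in array 2. Both arrays lay just below 0, and the mean of -0.13 ± 0.14 was no larger than the spread between them. A mean of this size is a 1.10-fold difference, and 45.8% of all loci had a smaller one. WSD1 thus had no difference beyond the spread of the arrays. An SD of 2 technical values does not measure how small a difference the arrays can resolve. The signal level of WSD1 in this mix of leaves and stems is not known.

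AT1G72110, another locus of the family, was closer still to equal in both genotypes. It stood at -0.03 in array 1 and -0.09 in array 2, with a mean of -0.06 ± 0.04. Its mean, a 1.04-fold difference, was larger than the SD between the arrays. Its 2 values had the same sign, but 1332 other loci (14.4%) were at least as far below 0 in both arrays. That makes its shared sign unremarkable among these loci.

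AT3G49190 had the mean nearest to 0 of the 7. It stood at -0.02 in array 1 and 0.02 in array 2, with a mean of 0.00 ± 0.03. The gap between its arrays, 0.04, was also the smallest of the 7, and only 6.32% of all loci had a smaller one.

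AT3G49210 had the highest mean of the 7 and rested on 1 array. It stood at 0.10 in array 1, which is 1.07-fold, and at 1.27 in array 2, which is 2.42-fold. The mean was 0.69 ± 0.83, so the spread between the arrays exceeded it. The gap between its arrays was 1.17, and 95.4% of all loci had a smaller one. In array 2 the value lay above 99.1% of all loci, and in array 1 above 63.8%. Both values were above 0, and 66 other loci (0.715%) were at least as high in both arrays.

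AT3G49190 and AT3G49210 lie in a row of family members with AT3G49200 between them, by the order of protein-coding genes in the TAIR10.1 gene table. Despite this the 2 measured genes of the row were apart in array 2. AT3G49210 was 0.12 above AT3G49190 in array 1 and 1.26 above it in array 2, a mean difference of 0.69 ± 0.80. The difference was smaller than its spread. Copies in such a row can share probe signal, and whether these probes do was not tested.

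In AT5G16350, a further locus of the family, both arrays lay above 0. It stood at 0.33 in array 1 (1.26-fold) and 0.74 in array 2 (1.67-fold), above 83.4% and 95.5% of all loci. Its mean of 0.54 ± 0.29, a 1.45-fold difference, was larger than the SD between the arrays. In each array it stayed under the 2-fold rule. Another 194 loci (2.10%) were at least as high in both. Had the columns been turned before deposit, AT5G16350 would lie below 0 in array 1 and above 0 in array 2, a mean of 0.20.

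The CER2-like genes had the lowest means of the 7, and in both the arrays had opposite signs. CER26, which acts in elongation of leaf wax chains, stood at 0.07 in array 1 and -0.71 in array 2, a mean of -0.32 ± 0.55. CER26-LIKE stood at 0.10 in array 1 and -1.10 in array 2, a mean of -0.50 ± 0.85. With opposite signs in 2 arrays the mean is smaller than the SD by construction, so that comparison adds nothing here.

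In array 2 these 2 genes were among the lower loci, since 4.49% of loci lay below CER26 and 1.67% below CER26-LIKE. In array 1 both lay slightly above 0, higher than 60.5% and 63.6% of loci. Opposite signs were common, at 53.6% of all loci, and both array 1 values were smaller than the median size of 0.24 over all loci in that array. Had the columns been turned to 1 direction before deposit, which no source states or denies, both genes would lie below 0 in both arrays, with means of -0.39 and -0.60. CER26-LIKE was 0.03 above CER26 in array 1 and 0.39 below it in array 2, so the related genes kept no order across the arrays (mean difference -0.18 ± 0.30). Under the reading used here the arrays gave no common direction for these relatives of CER2.

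The order by mean was AT3G49210, AT5G16350, AT3G49190, AT1G72110, WSD1, CER26 and CER26-LIKE. Of the 6 neighbouring pairs in this order, 5 had overlapping ranges of mean ± SD. The exception was AT5G16350 above AT3G49190, a difference of 0.54 in the means. By array 1 alone AT5G16350 would be first, and CER26-LIKE would lie just behind AT3G49210 in place of last.

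Across the 7 genes the arrays differed in how far values lay from 0. The median size of the ratio was 0.07 in array 1 and 0.71 in array 2, whereas over all loci it was 0.24 and 0.26. Array 2 held the value farther from 0 in 6 of the 7 genes, beside 52.0% of all loci. In array 2, AT3G49210 was at least 2-fold higher, as were 1.83% of all loci, and CER26-LIKE at least 2-fold lower, as were 2.17%. In array 1 none of the 7 was 2-fold from 0, beside 3.56% of all loci. The signs were the same in both arrays for 4 of the 7, beside 43.5% of all loci. Because the genes were chosen with earlier results of these data known, these comparisons with all loci are a description only.

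**Figure D2:**
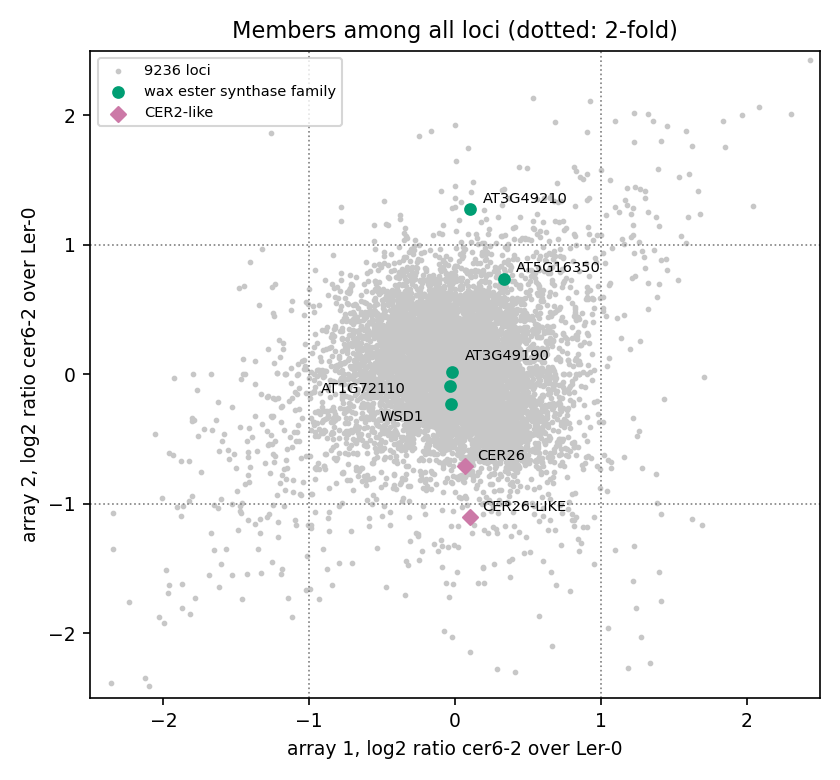
Each grey point is 1 of 9236 loci, with its log2 ratio of cer6-2 over Ler-0 in array 1 (horizontal) and array 2 (vertical), and dotted lines mark 2-fold. Axes stop at 2.5 in size, which leaves out 21 loci. The 7 genes form a nearly vertical band from CER26-LIKE to AT3G49210, and none lies in the corner fields where both arrays pass 2-fold.

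The loci with the pattern most like that of AT3G49210, whose mean was farthest from 0 under the reading used here, were sought by Euclidean distance over the 2 array values. With the columns read as turned, CER26-LIKE at -0.60 would be farther from 0 than AT3G49210 at 0.58. The nearest loci were AT5G58570, HYH (AT3G17609), a bZIP transcription factor of the light response, and AT5G54150, at distances of 0.09, 0.10 and 0.10. A further 11 loci lay within 0.2, and with 2 technical values per gene such likeness is a description of these arrays only.

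Of 3 further loci of the wax ester synthase family, 1 had a feature. This was AT5G12420, at -1.10 in array 1 and -0.27 in array 2, a mean of -0.68 ± 0.58. Here array 1 held the larger value, unlike in AT3G49210, and both lay below 0. With it the family had 6 measured loci, 0 called, and a median of -0.03. CER2 itself had no named feature and was not analysed here.

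Other genes of wax and neutral lipid synthesis were thinly covered. In 8 lists with 71 genes, 4 were measured and 0 called. The fatty acyl reductases, which supply the alcohols for wax esters, had no named feature among 8 genes. The same held for 21 ketoacyl-CoA synthases, CER6 included, so the genotype labels could not be checked by the mutated gene. It also held for the shared elongase subunits, the genes of wax export and fatty acid activation, and the diacylglycerol and phytyl ester acyltransferases.

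The 4 measured genes had means within 0.21 of 0. DEWAX (AT5G61590), a repressor of wax genes, stood at -0.36 in array 1 and -0.05 in array 2, a mean of -0.21 ± 0.22. AT1G02190 of the alkane branch list stood at 0.54 and -0.29, a mean of 0.13 ± 0.59. AT5G55340 and AT5G55380, relatives of the jojoba wax synthase, which is a membrane-bound enzyme unlike WSD1 in sequence, had means of -0.16 ± 0.64 and -0.03 ± 0.19. In all but DEWAX the arrays had opposite signs.

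The wider BAHD family, to which the CER2-like proteins belong, was covered better, with 27 of 50 other listed loci measured. Of these, 1 was called lower and 0 higher, which is 3.70% beside 1.32% of all loci. The median was -0.06, with 0.02 in array 1 and -0.05 in array 2. The called gene was AT4G15390, at -1.21 in array 1 and -1.26 in array 2, a mean of -1.24 ± 0.03 and a 2.36-fold lower ratio in cer6-2. The call rests on both assumptions about the table, since the mean was -0.37 with the values read as log2 and -0.02 with the columns read as turned.

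No other gene of the BAHD list passed the rule, and some had the same sign in both arrays. FACT (AT5G63560), which joins caffeic acid to fatty alcohols, stood at -0.40 and -0.68, a mean of -0.54 ± 0.20. CHAT (AT3G03480), which makes the leaf volatile hexenyl acetate, stood at 0.90 and 0.58, a mean of 0.74 ± 0.23. AT1G27620 had the highest mean of the list, 0.81 ± 0.70, with 0.32 in array 1 and 1.31 in array 2. Signs were the same in both arrays for 11 of the 27, opposite for 12, and 4 had an exact 0 in at least 1 array.

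**Figure D3:**
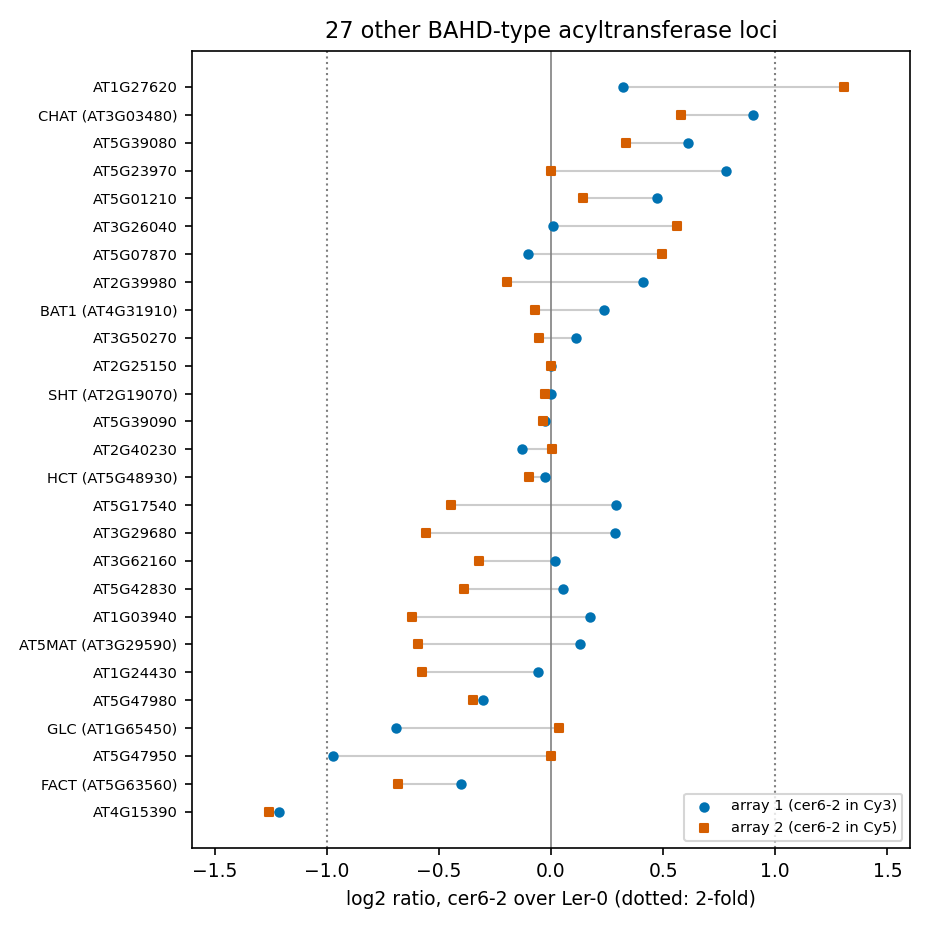
The log2 ratio of cer6-2 over Ler-0 (horizontal axis) is shown for 27 BAHD-type acyltransferase loci other than the CER2-like genes, ordered by mean. Circles are array 1, squares array 2, and dotted lines mark 2-fold. AT4G15390, at the bottom, is the 1 locus past 2-fold in both arrays, at -1.21 and -1.26.

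Tissue markers could be read only as ratios, so the labelled tissue could not be checked against their levels. Of 10 genes of the epidermis, the layer that makes wax, 1 was measured, the stomatal regulator MUTE at -0.33 ± 0.10. The 3 measured genes of green tissue had means from 0.08 to 0.25. The 5 measured root genes ran from BGLU21 at -0.75 ± 0.26 to PYK10 at 0.73 ± 0.08. Among them EXPA7 stood at 0.26 in array 1 and -1.18 in array 2, and XTH26 was listed at 0 in both. The 2 measured anther genes, AMS and AT4G20420, had means of -0.18 ± 1.62 and 0.21 ± 0.23. None of these 11 was called, and their part in the values of the 7 genes was not tested.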

How the data were processed

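The deposited table holds 1 value per feature and array, 22575 features on 2 arrays, taken to be a log10 channel ratio. The log base is not given in the sources used here, nor is any background correction, dye normalisation or filter. The deposited log10 values stop at 2 in size, a 100-fold ratio, and their median was 0 in each column. Per the labels' protocols, RNA was purified with an RNeasy kit and labelled directly with an Agilent kit. The sign of array 1 was reversed to make every ratio cer6-2 over Ler-0, and values were converted to log2. Where both deposited columns were 2-fold or more from 0, 122 loci had opposite signs and 15 the same, so the columns were read as not turned before deposit, which no source states.

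Features were named by gene identifier, using the platform's annotation with the RefSeq genes of TAIR10.1. Of 9375 annotated features, 9317 matched 1 gene there, covering 9236 loci, and 78 loci with several features were averaged. The other 13258 features entered no comparison, so a gene called not named may lie among them. Each of the 7 genes has 1 feature.

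The genes and the 15 lists were chosen with earlier results of these data known. Named were every measured gene of the family, the highest 2 and lowest 2 of each list, any called gene of a list, and the 3 loci nearest to the gene farthest from 0. Alternatives covered centring, differing features, averaging, single arrays, the log base, the direction and the threshold. Python 3.11.15, pandas 2.3.3 and matplotlib 3.10.9 were used.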

Additional observations from a re-analysis of the deposited data

How the results depend on the processing

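The count of 0 called among the 7 genes was 0 under every alternative but array 2 alone, so with single arrays it ran from 0 to 2, the 2 being AT3G49210 and CER26-LIKE. The median of the 7 genes ran from -0.093 to 0.068 by single array, and was 0.063 with Cy3 over Cy5. That of the 5 wax ester synthases was -0.0016 under the main settings. It was -0.032 without features differing over 2-fold between the arrays, a setting that drops AT3G49210. The BAHD median ran from -0.052 to 0.020 by single array, and was -0.14 if the columns had been turned before deposit and 0.061 with Cy3 over Cy5. Called among the 43 measured genes of all lists besides the 7 was 1, AT4G15390. Single arrays gave 3 and 3, the threshold of 1.5-fold 2 and that of 3-fold 0, and 0 were called with the values read as log2 or the columns as turned, where AT4G15390 stood at -0.37 and -0.022. With Cy3 over Cy5 AT4G15390 stood at 1.24, by construction. Read as turned before deposit, CER26-LIKE stood at -0.60 and CER26 at -0.39, with the same sign in both arrays. Under that reading AT5G16350 stood at 0.20, with opposite signs in the arrays. Either array alone decides the sign of AT3G49190, CER26 and CER26-LIKE. Centring moved each of the 7 means by -0.012, with 0 changes of sign. The cause was not tested where construction does not set it. Reading the values as linear ratios is barred by those below 0. No paired analysis was possible because each array holds the same pair of pools. How far signal over background limits these genes is unknown, since the table holds no levels.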
